A study of Homo sapiens with 6 samples.

Results

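The genes described here are 41 genes of the hypoxia response and of glycolysis, chosen by name out of 24526 genes in the table, with earlier results of these data known. They comprise 2 HIF subunits, 16 HIF targets outside glycolysis, 6 genes of glucose and lactate transport and of the control of glycolysis, and 17 glycolytic enzymes, lactate dehydrogenase included. Of the 41 genes, 39 passed the filter on low counts and entered the test. All were measured in WM266.4, an established human melanoma cell line, as 3 libraries from cells given a negative control siRNA (neg.si) and 3 from cells given an siRNA against RIPK4 (RIPK4.si), with a time of 48 h after transfection in the study's text. The study's methods name 1 catalogue item for the RIPK4 siRNA, so effects of that sequence and of RIPK4 silencing cannot be told apart. The labels name no low-oxygen treatment. The study's methods call the 3 libraries of a group biological replicates.

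HIF is a transcription factor made of an oxygen-sensitive alpha subunit and a stable partner. In oxygenated cells, prolyl hydroxylases mark the alpha subunit for destruction, and when oxygen is scarce the subunit persists and switches on genes for angiogenesis, acid handling, mitochondrial removal and glucose use. Several of these genes are also driven by other factors, and melanoma cells often run a strong glycolytic programme in normal oxygen. HIF is regulated mainly through protein stability, which RNA levels do not report.

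RIPK4 itself served as the check of the labels. Its level was 85.8, 76.5 and 54.7 CPM (counts scaled to a common library size by TMM normalization) in neg.si replicates 1, 2 and 3 and 19.9, 16.7 and 21.5 CPM in RIPK4.si replicates 1, 2 and 3. It fell by 1.90 on the log2 scale (SE 0.20, edgeR adjusted p = 0.0102). Library totals lay between 28464057 and 31688095 counts. All 8 melanocyte lineage markers examined had at least 1 CPM in every library, with sums of 3710 to 3921 CPM in neg.si and 2592 to 2757 CPM in RIPK4.si. The part of this lower melanocyte marker sum in the results below was not tested. Of the markers of other cell types, 1 of 4 keratinocyte genes (KRT10), 1 of 5 fibroblast genes (COL1A2), 0 of 2 endothelial genes and 0 of 4 leukocyte genes did so, while KRT14, COL1A1 and DCN stayed under 1 CPM everywhere. The fibroblast markers summed to 623 to 864 CPM in neg.si and 481 to 1074 CPM in RIPK4.si, with COL1A2 alone at 479 to 1071 CPM. The keratinocyte sums were 10.3 to 11.6 CPM in neg.si and 12.3 to 15.3 CPM in RIPK4.si, and no endothelial or leukocyte sum passed 1.46 CPM. The part of these sums in the results below was not tested. In bulk RNA, fewer cells with a transcript and less transcript per cell cannot be told apart. The controls differed among themselves in how their levels followed GC content. The deviation of a library from the mean level of each gene had a rank correlation with GC content of 0.59 in neg.si replicate 1 and -0.59 in neg.si replicate 3 across genes, against -0.09 to 0.18 in the other 4 libraries.

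The promoters of the genes with an unadjusted p under 0.05 are shown first, because HIF binds the 5-base core ACGTG or GCGTG. The 250 bases before the RefSeq start site (GRCh38.p14) are printed 5′ to 3′ on the gene's strand and in lower case, with every core on either strand in capitals. The stretches are chr11:18394313-18394562 for LDHA, chr19:8363905-8364154 for ANGPTL4, chr10:131981924-131982173 on the minus strand for BNIP3, chr9:35673678-35673927 for CA9 and chr10:6144671-6144920 for PFKFB3, all but BNIP3 on the plus strand.
LDHA: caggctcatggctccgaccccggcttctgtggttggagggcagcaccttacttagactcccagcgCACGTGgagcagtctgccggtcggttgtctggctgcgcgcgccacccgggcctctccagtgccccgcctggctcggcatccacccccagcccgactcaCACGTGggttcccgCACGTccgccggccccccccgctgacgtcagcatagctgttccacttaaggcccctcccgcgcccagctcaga
ANGPTL4: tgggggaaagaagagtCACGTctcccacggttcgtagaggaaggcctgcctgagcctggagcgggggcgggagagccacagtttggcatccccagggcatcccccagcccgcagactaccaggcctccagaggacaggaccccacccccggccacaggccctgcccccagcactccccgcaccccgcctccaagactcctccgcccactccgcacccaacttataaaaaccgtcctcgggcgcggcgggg
BNIP3: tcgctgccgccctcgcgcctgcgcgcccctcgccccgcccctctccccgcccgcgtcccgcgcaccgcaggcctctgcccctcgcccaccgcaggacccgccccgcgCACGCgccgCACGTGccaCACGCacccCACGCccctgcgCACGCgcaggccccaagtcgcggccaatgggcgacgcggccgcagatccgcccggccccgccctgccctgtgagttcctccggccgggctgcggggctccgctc
CA9: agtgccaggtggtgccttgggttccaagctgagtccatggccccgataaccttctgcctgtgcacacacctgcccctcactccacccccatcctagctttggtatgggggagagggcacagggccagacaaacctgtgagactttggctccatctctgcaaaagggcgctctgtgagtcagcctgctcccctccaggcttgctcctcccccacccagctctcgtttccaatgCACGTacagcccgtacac
PFKFB3: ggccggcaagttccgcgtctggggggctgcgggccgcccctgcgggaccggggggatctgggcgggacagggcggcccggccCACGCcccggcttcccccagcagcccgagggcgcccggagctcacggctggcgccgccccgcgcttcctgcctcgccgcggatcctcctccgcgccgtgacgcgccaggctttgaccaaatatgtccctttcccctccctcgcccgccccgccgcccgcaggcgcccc

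LDHA held 5 matches and BNIP3 held 6, counting matches that overlap on the 2 strands, and ANGPTL4, CA9 and PFKFB3 held 1 each. The single match in CA9 began 18 bases before the start site and that in ANGPTL4 began 234 bases before it. The ANGPTL4 stretch lies inside the annotated gene used for counting, which begins at 8363289, upstream of the RefSeq start site used here. Of the 41 genes, 36 had a promoter in the RefSeq table, and VEGFA had none there. In the full window of 300 bases, from 250 before to 50 after the start site, 27 of the 36 (75.0%) held a core, against 48.4% of all 35116 promoters of that length. The core was present in 10 of 12 promoters of HIF targets outside glycolysis and in 12 of 17 promoters of glycolytic enzymes, among them genes with no detected difference such as GAPDH and PGK1. A match is a string of letters and was not tested for binding.

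Across the 39 genes tested with edgeR, 1 had an adjusted p under 0.05, which is LDHA, or 2.56%, where 0.767% of the 16297 genes tested were called. DESeq2 called 5 of the 41 genes (LDHA, ANGPTL4, BNIP3, CA9 and VEGFA), all higher in RIPK4.si, where 2.91% of its genes with an adjusted p were called. With the dependence on GC content taken out of every library, edgeR also called 5, namely LDHA, ANGPTL4, CA9 and VEGFA as higher and PFKFB3 as lower, where 3.41% of all genes were called. The 6 genes named in these lists are also those with an unadjusted p under 0.05 in edgeR. That is 15.4% of the 39, beside 10.8% of all genes, with 5 on the higher side, where 4.85% of all genes lay, and 1 on the lower side, where 6.0% lay. In 9 genes, or 23.1%, the CPM of the 2 groups did not overlap, beside 17.6% of all genes. They were ANGPTL4, CA9, BNIP3, VEGFA, LDHA, EPAS1 and BHLHE40 on the higher side and PFKFB3 and SLC2A3 on the lower side. The fold changes leaned upward, with 33 of 39 above 0 (84.6%) where 46.6% of all genes were above 0. Without neg.si replicate 3 this became 26 of 39 (66.7%), beside 49.9% of all genes, without RIPK4.si replicate 2 it became 29 of 39 (74.4%), beside 48.8%, and with the GC trend removed it was again 33 of 39. The median log2 fold change of the 39 was 0.17, beside -0.02 for all genes. It was 0.073 without neg.si replicate 3, 0.088 without RIPK4.si replicate 2, 0.16 to 0.24 without any other library and 0.19 with the GC trend removed.

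**Figure D1:**
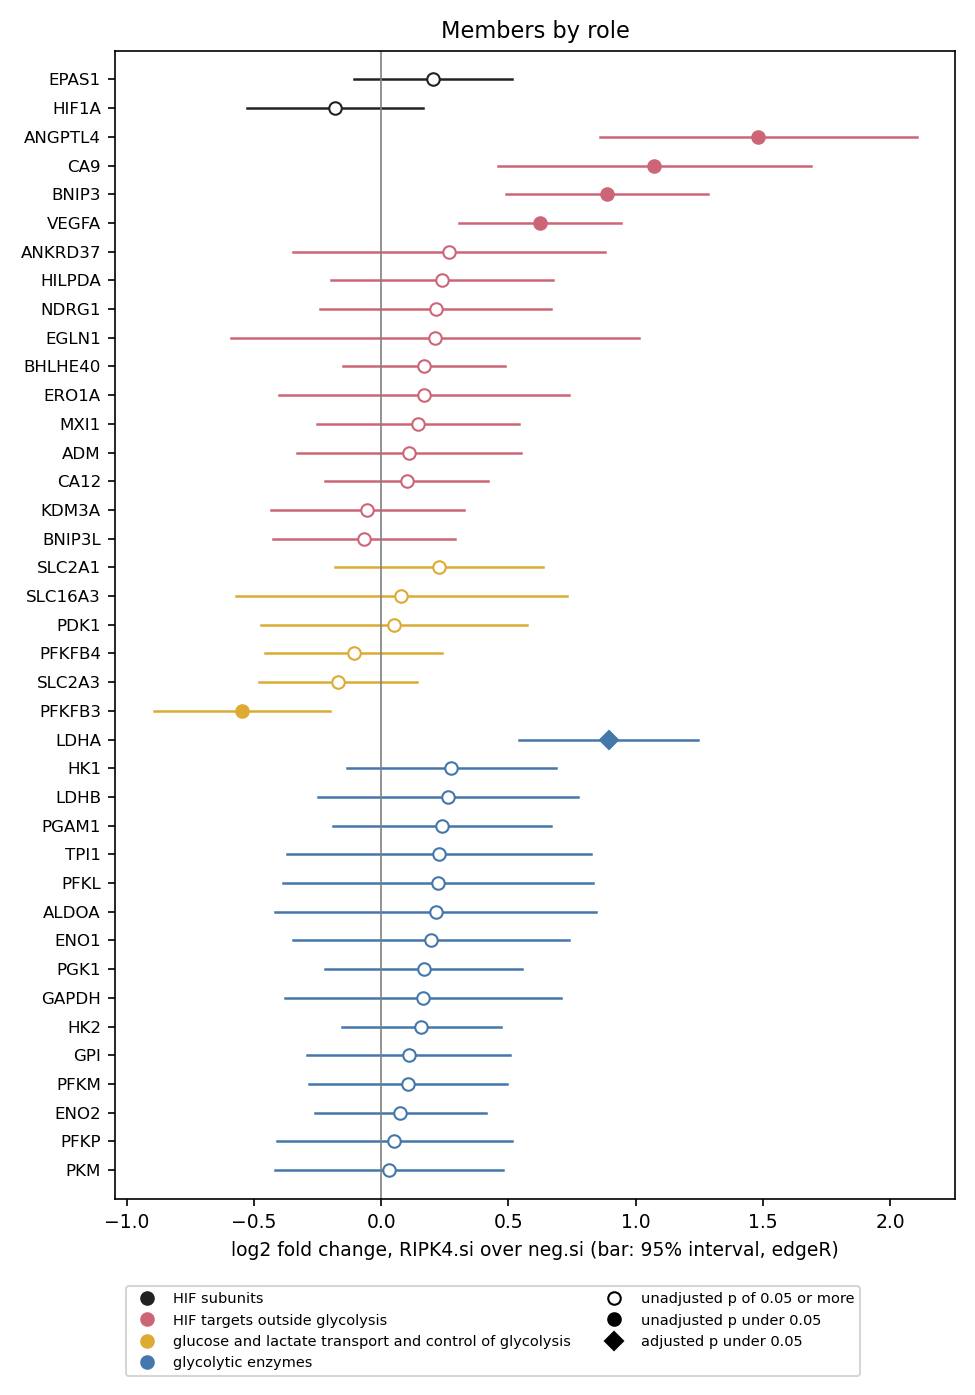
Log2 fold change of RIPK4.si over neg.si (x axis) for each of the 39 genes tested (y axis), coloured by role, with the 95% interval from edgeR as bars. ANGPTL4 (1.48), CA9 (1.07), LDHA (0.89), BNIP3 (0.89) and VEGFA (0.63) have intervals above 0, PFKFB3 (-0.55) has one under 0, and the others cross 0.

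The alpha subunits came first. HIF1A, the broadly expressed oxygen-sensitive subunit, had 584, 712 and 684 CPM in neg.si and 555, 555 and 636 CPM in RIPK4.si, and the groups overlapped. Its log2 fold change was -0.18 (SE 0.15, adjusted p = 0.799), with a 95% interval from 0.694-fold to 1.12-fold. EPAS1, which encodes HIF-2 alpha, had 128, 128 and 117 CPM in neg.si and 149, 132 and 150 CPM in RIPK4.si. Every RIPK4.si library lay above every neg.si library, but the margin was small, with a log2 fold change of 0.20 (SE 0.14, adjusted p = 0.714). Per kilobase of the reference transcript, HIF1A stood at 167 ± 17.0 CPM per kilobase and EPAS1 at 24.2 ± 1.21 CPM per kilobase in neg.si (SD, n = 3).

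Among the HIF targets outside glycolysis, 4 genes were on the higher side with an unadjusted p under 0.05, or 26.7% of the 15 tested beside 4.85% of all genes. In each of the 4, every RIPK4.si library lay above every neg.si library. None of the 15 was called by edgeR in the fit that gives the values below. Of the 15, 13 had a fold change above 0 and the median was 0.21 on the log2 scale, and with any 1 library left out 12 to 14 were above 0 and the median was 0.16 to 0.28. In 5 of the 15 (33.3%) the groups did not overlap, beside 17.6% of all genes. ANGPTL4, a secreted inhibitor of lipoprotein lipase (chromosome 19 of GRCh38, 8363289 to 8374370), had 103, 82.3 and 45.6 CPM in neg.si and 198, 256 and 190 CPM in RIPK4.si. The lowest RIPK4.si library lay above the highest neg.si library. Its level was 2.79-fold higher in RIPK4.si (log2 fold change 1.48, 95% interval 0.86 to 2.10, SE 0.28, adjusted p = 0.0518). Leaving out neg.si replicate 1 gave an adjusted p of 0.0383 and leaving out neg.si replicate 3 gave 0.0135, whereas leaving out any other library gave 0.184 to 0.279. It was also under 0.05 with the replicate number as a block (0.0179), with no filter on low counts (0.0342) and with upper-quartile normalization (0.0469).

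BNIP3, a mitochondrial protein that marks mitochondria for removal (chromosome 10, 131966455 to 131982013), had 194, 181 and 148 CPM in neg.si and 285, 383 and 298 CPM in RIPK4.si. The groups were apart, and the level was 1.85-fold higher (95% interval 1.40 to 2.43; log2 fold change 0.89, SE 0.18, adjusted p = 0.0651). The adjusted p was 0.0635 with the GC trend removed and 0.0409 with the replicate block as well. Its paralog BNIP3L, with the same mitochondrial role, had 197, 216 and 262 CPM in neg.si and 197, 222 and 226 CPM in RIPK4.si, so that the 2 groups overlapped (log2 fold change -0.07, SE 0.16). The table also lists 7 BNIP3 pseudogenes, whose counts together came to 1.64% of those of BNIP3.

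VEGFA, the main angiogenic growth factor (chromosome 6, 43770184 to 43786487), had 251, 271 and 232 CPM in neg.si and 406, 383 and 374 CPM in RIPK4.si. The groups were apart, at 251 ± 19.6 CPM against 388 ± 16.3 CPM (SD, n = 3). It amounted to 1.54-fold (95% interval 1.24 to 1.92; log2 fold change 0.63, SE 0.14, adjusted p = 0.0966). CA9, a cell-surface carbonic anhydrase widely used as a hypoxia marker (chromosome 9, 35673918 to 35681159), had 28.1, 32.3 and 13.9 CPM in neg.si and 53.4, 51.4 and 51.6 CPM in RIPK4.si. The RIPK4.si libraries lay close together, while neg.si replicate 3 was under the other controls. The level was 2.10-fold higher (95% interval 1.37 to 3.22; log2 fold change 1.07, SE 0.27, adjusted p = 0.135), with an adjusted p of 0.0275 and a log2 fold change of 0.79 without neg.si replicate 3. Without any other library its adjusted p was 0.133 to 0.473. Of the exon bases of the CA9 reference transcript, 36.9% are shared with ARHGEF39 on the opposite strand, and the counting ignored strand.

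**Figure D2:**
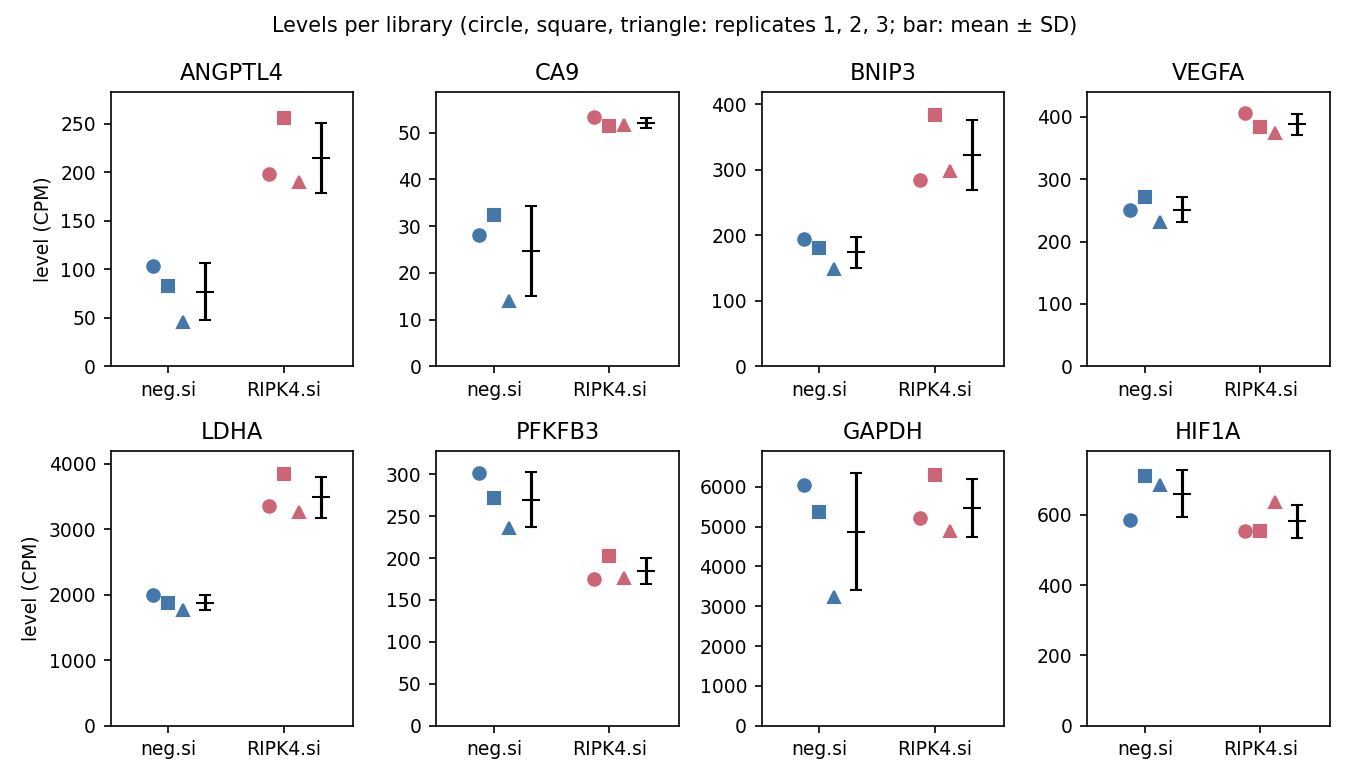
Level in CPM (y axis, from 0) of 8 genes in neg.si (blue) and RIPK4.si (red), with 1 symbol per library and the mean ± SD beside it. In the upper panels and in LDHA and PFKFB3 the groups are apart, while in GAPDH, where neg.si replicate 3 lies lowest at 3223 CPM, and in HIF1A they overlap.

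The other HIF targets outside glycolysis had fold changes between -0.07 and 0.27 on the log2 scale, and none had an unadjusted p under 0.05. BHLHE40, a transcriptional repressor, was the only other one without overlap, with 301, 333 and 307 CPM in neg.si and 343, 334 and 381 CPM in RIPK4.si (log2 fold change 0.17, SE 0.14). NDRG1, a stress-response gene strongly induced by hypoxia in many cells, was the most abundant of these targets, at 3138, 3359 and 2294 CPM in neg.si and 3000, 4036 and 3160 CPM in RIPK4.si. Its 95% interval ran from 0.847-fold to 1.59-fold, so a difference of the size seen in VEGFA lies within it. Of the exon bases of NDRG1, 24.9% are shared with another annotated gene. CA12, a second surface carbonic anhydrase, had 543 ± 26.1 CPM in neg.si and 582 ± 36.0 CPM in RIPK4.si (SD, n = 3), a log2 fold change of 0.10 (SE 0.14). The upper end of its 95% interval was 1.34-fold.

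Adrenomedullin (ADM), a vasodilator peptide, had 115 ± 30.0 CPM in neg.si and 124 ± 7.35 CPM in RIPK4.si. The oxidoreductase ERO1A, which supplies disulfide bonds in the endoplasmic reticulum, had 214, 271 and 415 CPM in neg.si and 392, 263 and 357 CPM in RIPK4.si, a wide spread in both groups. The histone demethylase KDM3A (log2 fold change -0.05), the MYC antagonist MXI1 (0.14) and the lipid droplet protein HILPDA (0.24) had standard errors between 0.17 and 0.19. The remaining genes of this group were low. EGLN1, the main HIF prolyl hydroxylase, lay between 3.65 and 10.3 CPM, with both ends in neg.si, and 69.3% of its exon bases are shared with another annotated gene. ANKRD37 had between 1.70 and 3.09 CPM in the 6 libraries, with 54.7% of its exon bases shared with UFSP2. EGLN3 had 1, 2 and 0 counts in neg.si and 1, 3 and 7 counts in RIPK4.si, and did not pass the filter.

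The genes that bring glucose in, carry lactate out and set the pace of glycolysis leaned both ways. Of the 6, 3 had a fold change above 0 and 3 under 0, with a median log2 fold change of -0.03, and with any 1 library left out the median was -0.15 to -0.03. PFKFB3, which makes the fructose 2,6-bisphosphate that activates phosphofructokinase (chromosome 10, 6144934 to 6254644), had 301, 272 and 236 CPM in neg.si and 175, 202 and 176 CPM in RIPK4.si. Every RIPK4.si library lay under every control. The level was 0.684-fold that of neg.si (95% interval 0.538 to 0.869; log2 fold change -0.55, SE 0.15, adjusted p = 0.18), and the adjusted p was 0.0373 with the GC trend removed, 0.0569 with the replicate block as well and 0.102 with DESeq2. PFKFB4, its paralog, had 601, 554 and 504 CPM in neg.si and 564, 454 and 521 CPM in RIPK4.si (log2 fold change -0.11, SE 0.16).

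SLC2A1, the widespread glucose transporter GLUT1, had 232, 238 and 165 CPM in neg.si and 221, 277 and 244 CPM in RIPK4.si, and these ranges overlapped (log2 fold change 0.23, SE 0.18, adjusted p = 0.784). SLC2A3, the high-affinity transporter GLUT3, had 123, 123 and 131 CPM in neg.si and 119, 102 and 115 CPM in RIPK4.si. It was lower in every RIPK4.si library, by a small amount (log2 fold change -0.17, SE 0.14, adjusted p = 0.784). The lactate exporter SLC16A3 had 254, 184 and 107 CPM in neg.si and 157, 235 and 183 CPM in RIPK4.si, and its neg.si spread alone covered the RIPK4.si values. Of its exon bases, 18.5% are shared with other annotated genes, CSNK1D on the opposite strand among them. PDK1, which holds pyruvate back from the mitochondria, had 101, 129 and 172 CPM in neg.si and 158, 103 and 153 CPM in RIPK4.si (log2 fold change 0.05, SE 0.23, adjusted p = 0.976).

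Levels of the glycolytic enzymes spanned a wide range. In neg.si the highest enzyme levels per kilobase of the reference transcript were those of GAPDH (3795 ± 1145 CPM per kilobase), ENO1 (2788 ± 673), PKM (1564 ± 351), TPI1 (978 ± 291) and LDHA (838 ± 51.0; SD, n = 3 for each). Of neighbours in this order, GAPDH and ENO1, PKM and TPI1, and TPI1 and LDHA had overlapping mean ± SD ranges, and ENO1 and PKM did not.

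LDHA, which turns pyruvate into lactate (chromosome 11, 18394560 to 18408425), was the enzyme that rose. It had 1995, 1872 and 1767 CPM in neg.si and 3361, 3851 and 3258 CPM in RIPK4.si. The gap between the groups was wide beside the spread within them, with 1878 ± 114 CPM against 3490 ± 317 CPM (SD, n = 3). This was 1.86-fold (95% interval 1.45 to 2.37; log2 fold change 0.89, SE 0.16, adjusted p = 0.0422 from edgeR). The log2 fold change lay between 0.83 and 0.96 when any 1 library was left out. The adjusted p stayed under 0.05 only without neg.si replicate 3 (0.0401) and was 0.0684 and 0.314 without neg.si replicate 1 or 2 and 0.17, 0.12 and 0.246 without RIPK4.si replicate 1, 2 or 3. DESeq2 called LDHA as well, and reads of the 1 LDHA pseudogene listed came to 0.101% of its counts. With the GC trend removed, LDHA had 2254, 1879 and 1516 CPM in neg.si and 3290, 4112 and 3202 CPM in RIPK4.si. The spread in neg.si was then wider, and the groups stayed apart.

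The other 15 enzymes tested gave no such separation. All 15 had a log2 fold change above 0, between 0.03 and 0.28, but none had an unadjusted p under 0.05 and none kept the groups apart. This lean was smaller without either of 2 libraries. In neg.si replicate 3, 14 of the 16 enzymes tested had their lowest level of the 6 libraries, and 11 had their highest in RIPK4.si replicate 2. Summed over the 15 enzymes, neg.si replicates 1, 2 and 3 had 23788, 21660 and 15053 CPM and RIPK4.si replicates 1, 2 and 3 had 20480, 26721 and 20233 CPM. Without neg.si replicate 3, 9 of the 15 were above 0 and their median log2 fold change was 0.02 in place of 0.17. Without RIPK4.si replicate 2, 11 were above 0 and the median was 0.058, and without any other library 14 or 15 were above 0 and the median was 0.22 to 0.26. With the GC trend of each library removed, the median over the 15 was 0.19 and neg.si replicate 3 still lay lowest in the median deviation.

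**Figure D3:**
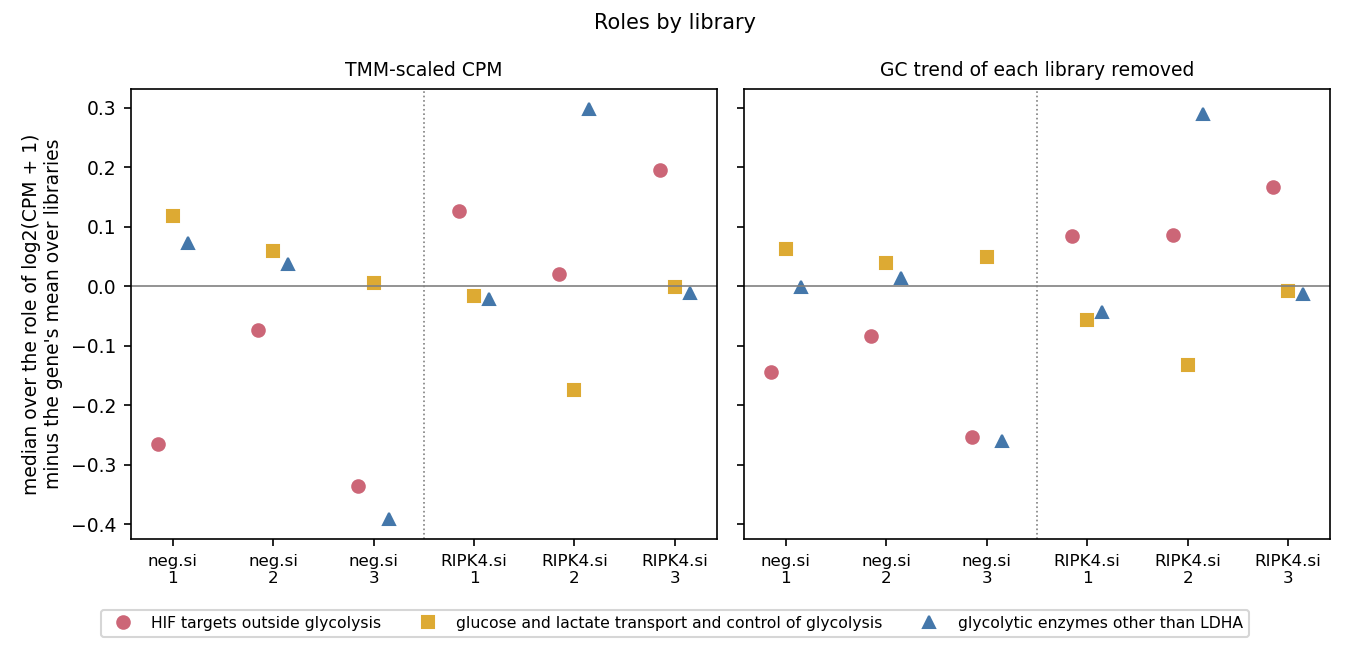
Median over the genes of a role of log2(CPM + 1) minus each gene's mean over the 6 libraries (y axis), for each library (x axis), before and after removal of the GC trend. The HIF targets outside glycolysis lie under 0 in the 3 neg.si libraries and above 0 in the 3 RIPK4.si libraries in both panels, whereas the 15 enzymes other than LDHA lie lowest in neg.si replicate 3 (-0.39 before, -0.26 after) and highest in RIPK4.si replicate 2 (0.30 before, 0.29 after).

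GAPDH, a glycolytic enzyme that the study used to normalise its PCR measurements, had 6038, 5371 and 3223 CPM in neg.si and 5215, 6297 and 4888 CPM in RIPK4.si. The lowest and the second highest of the 6 values were both in neg.si, and its log2 fold change was 0.16 (SE 0.24, adjusted p = 0.915), with a 95% interval from 0.769-fold to 1.63-fold. With the GC trend removed it had 5379, 5275 and 3720 CPM in neg.si and 5165, 6187 and 4972 CPM in RIPK4.si. ENO1, the main enolase, had 5915, 5362 and 3618 CPM in neg.si and 4928, 7303 and 4825 CPM in RIPK4.si (log2 fold change 0.20, SE 0.24, adjusted p = 0.887). PKM, the pyruvate kinase of most dividing cells, had 4361, 3701 and 2751 CPM in neg.si and 3552, 4083 and 3416 CPM in RIPK4.si (log2 fold change 0.03, SE 0.20, adjusted p = 0.984). In all 3 enzymes the values of the groups were interleaved.

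HK2, the inducible hexokinase, had 251, 259 and 235 CPM in neg.si and 282, 257 and 291 CPM in RIPK4.si (log2 fold change 0.16, SE 0.14, adjusted p = 0.81). HK1, the housekeeping hexokinase, had 404 ± 68.7 CPM in neg.si and 489 ± 71.9 CPM in RIPK4.si. Of the other steps, TPI1, PGK1, PGAM1 and GPI, which isomerise or pass on phosphate along the pathway, had log2 fold changes of 0.23, 0.17, 0.24 and 0.11. The phosphofructokinase genes PFKL, PFKM and PFKP had 0.22, 0.11 and 0.05, and the neuronal-type enolase ENO2 had 0.08. Standard errors for these 8 genes lay between 0.15 and 0.27.

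Some enzymes share exon bases with other annotated genes, and the part of this in their counts was not tested. ALDOA, an enzyme that is usually abundant, had only 6.55, 7.73 and 4.66 CPM in neg.si and 4.81, 8.24 and 8.91 CPM in RIPK4.si, and 89.8% of the exon bases of its reference transcript are shared with other annotated genes. LDHB had 83.9, 112 and 99.4 CPM in neg.si and 84.1, 157 and 114 CPM in RIPK4.si, with 76.5% of its exon bases shared. How the counting treated read pairs that fall on more than 1 gene is not given in the sources used here. For GAPDH 32.8% of the exon bases are shared, and for LDHA, ANGPTL4, BNIP3 and PFKFB3 none. ALDOC, another aldolase, had between 5 and 11 counts in the 6 libraries and was not tested.

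Ratios within a library do not depend on the scaling between libraries. They can depend on a library's GC trend, since GC content is 41.8% in LDHA, 51.3% in VEGFA, 63.3% in ANGPTL4 and 56.1% in GAPDH. The ratios below are from values before removal of that trend and were not computed after it. LDHA made up 7.74%, 7.95% and 10.5% of the summed CPM of the 16 enzymes in neg.si and 14.1%, 12.6% and 13.9% in RIPK4.si. Per 100 GAPDH counts there were 33.0, 34.9 and 54.8 LDHA counts in neg.si and 64.5, 61.2 and 66.6 in RIPK4.si. On these values both ratios kept the groups apart, with neg.si replicate 3 nearest to RIPK4.si. For ANGPTL4, the same ratio to GAPDH was 1.70, 1.53 and 1.42 in neg.si and 3.80, 4.07 and 3.89 in RIPK4.si. For VEGFA it was 4.16, 5.05 and 7.20 in neg.si and 7.78, 6.09 and 7.65 in RIPK4.si, so that neg.si replicate 3 lay above RIPK4.si replicate 2 and the groups overlapped on this scale. The other 2 neg.si values lay under all 3 RIPK4.si values.

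Shares of paired isoenzymes and paralogs, on counts per kilobase, were compared in 10 families with a two-sided exact permutation test, in which 3 libraries against 3 cannot give a p under 0.1. The GC trend was not removed from these counts. BNIP3 made up 68.7%, 65.2% and 55.9% of BNIP3 and BNIP3L in neg.si and 76.4%, 79.4% and 74.8% in RIPK4.si (exact p = 0.1, adjusted over the families 0.25). PFKFB3 made up 28.1%, 27.7% and 26.7% of PFKFB3 and PFKFB4 in neg.si and 19.5%, 25.8% and 20.8% in RIPK4.si (exact p = 0.1, adjusted 0.25). HIF1A made up 85.6%, 87.9% and 88.4% of HIF1A and EPAS1 in neg.si and 82.9%, 84.6% and 84.7% in RIPK4.si (exact p = 0.1, adjusted 0.25). In these 3 pairs and in LDHA with LDHB, where the share was 91.7 ± 1.37% and 94.6 ± 1.22% (SD, n = 3; exact p = 0.1, adjusted 0.25), the groups did not overlap. The shared exon bases of LDHB bear on the last pair. In the other 6 families the exact p lay between 0.2 and 0.7, with a share of HK1 among HK1 and HK2 of 71.5 ± 2.83% in neg.si and 73.2 ± 3.89% in RIPK4.si, and of SLC2A1 among SLC2A1 and SLC2A3 of 65.1 ± 5.54% and 71.3 ± 3.86%.

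**Figure D4:**
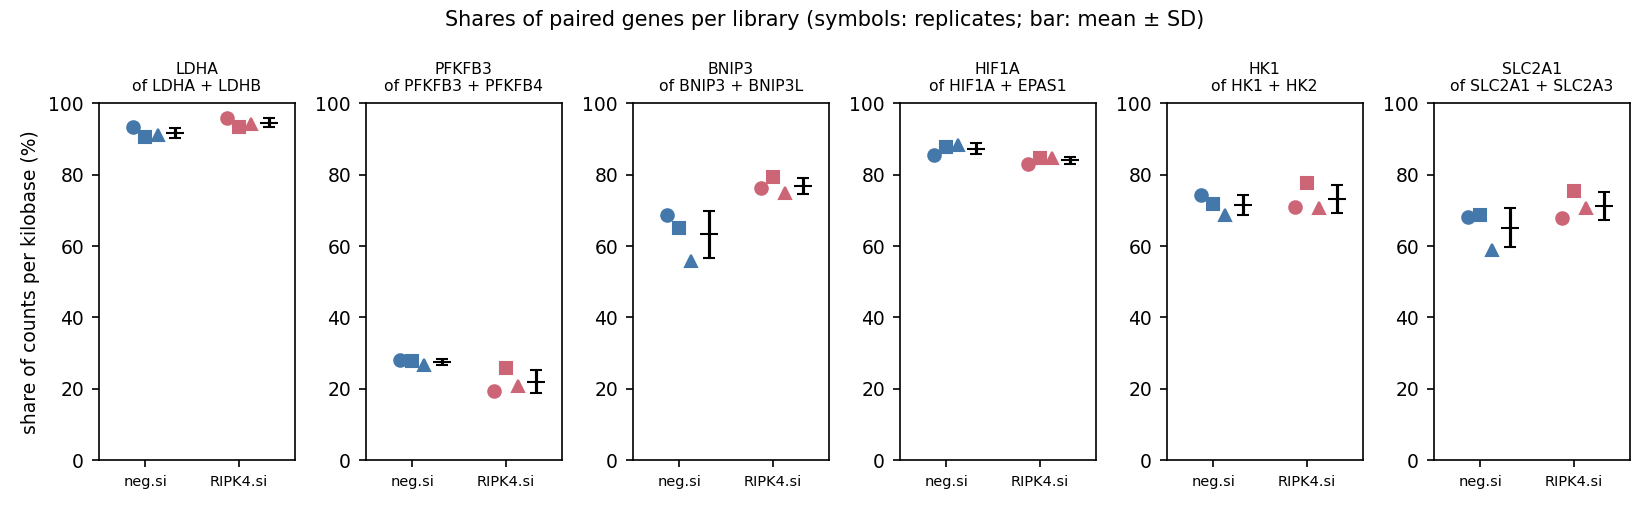
Share of the first-named gene in a pair, in percent of their summed counts per kilobase (y axis, 0 to 100), for 6 pairs in neg.si (blue) and RIPK4.si (red), with 1 symbol per library and the mean ± SD. The widest gap is that of BNIP3, from 63.3 ± 6.64% to 76.9 ± 2.38%, and the shares of HK1 and SLC2A1 overlap between the groups.

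A longer list of other genes of the pathway, 86 in all with 71 tested, gave 1 call in edgeR (1.41% of those tested) and 10 genes with an unadjusted p under 0.05, 6 higher and 4 lower, or 14.1%. These shares stand beside the same 0.767% and 10.8% of all genes. TMEM45A, a membrane protein often listed among hypoxia-induced genes, rose from 70.2, 68.9 and 64.9 CPM in neg.si to 130, 187 and 133 CPM in RIPK4.si (log2 fold change 1.14, SE 0.18, adjusted p = 0.0329). Its adjusted p was 0.237 without neg.si replicate 2 and 0.11, 0.0968 and 0.172 without RIPK4.si replicates 1, 2 and 3. The lipoprotein receptor VLDLR was lower in every RIPK4.si library, at 55.4, 49.1 and 53.2 CPM against 81.8, 86.5 and 95.4 CPM (log2 fold change -0.74, SE 0.14, adjusted p = 0.0562). A further 4 genes had the next smallest unadjusted p-values and groups that did not overlap. The stanniocalcin STC2 had a log2 fold change of 0.82 (SE 0.21, adjusted p = 0.134), the hexokinase-like HKDC1 0.71 (SE 0.17, adjusted p = 0.111), the glucose transporter SLC2A10 0.69 (SE 0.18, adjusted p = 0.148) and TIGAR, a phosphatase that lowers fructose 2,6-bisphosphate, -1.49 (SE 0.42, adjusted p = 0.18). TIGAR was low, at 1.94, 3.70 and 4.50 CPM in neg.si and 1.47, 0.588 and 1.54 CPM in RIPK4.si. DESeq2 called these 6 genes and no other gene of the list, beside 2.91% of all its genes with an adjusted p.

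The machinery that controls HIF gave no call. Of its 9 genes tested, 8 had a fold change under 0 and 1 above 0 (11.1%), beside 46.6% of all genes above 0. Without neg.si replicate 3, 4 were under 0 and 5 above 0 (55.6%), beside 49.9% of all genes above 0. The 9 include the antisense RNA HIF1A-AS3, with a mean of 0.877 CPM in neg.si. VHL, which recognises hydroxylated HIF alpha, had 11.3, 11.4 and 16.4 CPM in neg.si and 13.5, 11.3 and 12.1 CPM in RIPK4.si (log2 fold change -0.08, SE 0.20), and its fold change was above 0 without neg.si replicate 3. ARNT, the stable HIF partner, had 45.7, 46.8 and 46.2 CPM in neg.si and 40.2, 38.3 and 38.0 CPM in RIPK4.si, a small difference with no overlap (log2 fold change -0.25, SE 0.14, adjusted p = 0.585). HIF1AN, the asparagine hydroxylase that blocks HIF activity, had 80.3 ± 1.80 CPM and 75.9 ± 3.65 CPM (log2 fold change -0.08, SE 0.13). EGLN2 had under 1 CPM in every library.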

How the data were processed

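RNA of 6 WM266.4 libraries (3 neg.si, 3 RIPK4.si; 28464057 to 31688095 counts each) was sequenced as poly(A) paired reads. The authors trimmed with Cutadapt, mapped to GRCh38.p13 by TopHat, then used HTSeq without strand to assign read pairs to genes. The deposited counts are whole read pairs and were the only values used. The deposited signal values are counts divided by DESeq2's size factors, with their mean. The deposited fold changes (a ratio, and log2 with its error), p-values and adjusted p-values are the authors' own DESeq2 comparison and were left out.

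The test was edgeR's quasi-likelihood test (version 4.0.16, R 4.3.3; TMM, filterByExpr, Benjamini-Hochberg over 16297 genes). The SE is the log2 fold change divided by the square root of F. The test was checked on simulated data. Transcript length, GC content and shared exon bases came from GENCODE release 44 (the canonical transcript), in which 24416 of 24526 identifiers were found. The GC trend of each library was removed by lowess with span 0.3. The 41 members, the lists, tests and alternatives were chosen with earlier results of these data known. Full statistics are given for members with an unadjusted p under 0.05 and for a fixed set of named members, and in the pathway list the 6 smallest p-values plus VHL, ARNT, EGLN2 and HIF1AN are named. Alternatives were DESeq2 1.42.0, other normalizations and filters, a replicate block, GC removal and each library left out. Python 3.11.15 with scipy 1.17.1 gave the exact tests, and matplotlib 3.10.9 the plots.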

Additional observations from a re-analysis of the deposited data

How the results depend on the processing

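All 39 members and 14 alternatives gave 546 fold changes, of which 500 kept both direction and side of the threshold, and 23 turned direction, all with 1 library left out. Over all genes, edgeR called 125, DESeq2 437, edgeR with the GC trend removed 555 and with the replicate block and GC removal 486. With 1 library left out the count ran from 0 to 295. It was 0 without neg.si replicate 2, RIPK4.si replicate 1 or RIPK4.si replicate 3, and then 1153, 1426 and 1086 genes stood under 0.05 before adjustment, with DESeq2 run on all 6 libraries only. Members called were 1, then 5 with DESeq2, with the GC trend removed and with both block and GC removal (where BNIP3 was called in place of PFKFB3), 2 (LDHA and ANGPTL4) with upper-quartile normalization, with no filter on low counts and with the replicate block, and from 0 to 3 with 1 library left out. It was 0 without neg.si replicate 2 or any 1 RIPK4.si library, with 6 members under 0.05 before adjustment each time, and 3 without neg.si replicate 3. Pathway genes called were 1, with 6 under DESeq2, 7 with the GC trend removed, 5 with the block and GC removal, and 0 to 2 with 1 library left out. The RIPK4 log2 fold change ran from -2.06 to -1.74 with 1 library left out, and its adjusted p was 0.106 without neg.si replicate 2 and 0.094, 0.0622 and 0.0725 without RIPK4.si replicates 1, 2 and 3. The summed level of the HIF subunits had a log2 ratio of -0.11, and the mean of log2 CPM gave 0.011. The sum is weighted towards HIF1A, at 660 CPM in neg.si beside 125 CPM for EPAS1, whereas the mean weights both alike. The cause of the other shifts was not tested.

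With 1 library left out, the log2 fold changes of the members that turned direction ran over these ranges: EGLN1 -0.092 to 0.64, KDM3A -0.17 to 0.070, ADM -0.053 to 0.34, BNIP3L -0.14 to 0.062, ERO1A -0.0058 to 0.48, SLC16A3 -0.19 to 0.42, PDK1 -0.099 to 0.27, GPI -0.020 to 0.20, PFKL -0.031 to 0.54, PFKM -0.047 to 0.25, PFKP -0.13 to 0.27, TPI1 -0.014 to 0.44, GAPDH -0.057 to 0.36, ENO1 -0.018 to 0.36, ENO2 -0.0091 to 0.17 and PKM -0.13 to 0.21. In the longer list, VHL ran from -0.15 to 0.12.

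The replicate numbers were not shown to pair the libraries. Deviations of same-numbered libraries from their group means correlated across genes at -0.31, 0.35 and 0.48 for numbers 1, 2 and 3. With the replicate block, 131 genes were called over all and 2 members. Counts of EGLN3, ALDOC, EGLN2, ANKRD37 and TIGAR were low, and the reason was not tested.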
